A study of Mus musculus with 6 samples.

Results

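The 8 genes described here encode proteins of the myelin sheath or of the cell that builds it, and were followed through the oligodendrocyte lineage of the mouse hypothalamus. They are Mbp, Mobp, Cnp, Mag, Mog, Opalin, Mal and Ermn, taken by symbol from the 16411 genes listed. Single-cell RNA sequencing with a droplet method that counts the 3' ends of transcripts (10x Genomics, v2 chemistry) was applied to the hypothalamus of male ob/ob mice, which lack leptin and are obese and diabetic. All mice belonged to 1 group, R50E. Each was 11 weeks old, received 3 µg of FGF1 R50E, a mutant form of fibroblast growth factor 1, by intracerebroventricular (icv) injection, and was killed on day 5. The labels name 6 mice, and cells of 4 of them (mice 3, 4, 30 and 34) were analysed here, while mice 12 and 37 were not analysed here. No control group was among the labelled samples, so no effect of the treatment was estimated, and every comparison below is between cell types of the same mice.

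Oligodendrocytes arise from oligodendrocyte precursor cells (OPC), which divide and sense growth factors. A precursor that leaves the cycle becomes a committed precursor (COP), a short-lived stage that makes Gpr17, Bcas1 and Enpp6, and then a mature oligodendrocyte (Olig) that wraps axons. Myelin consists of compacted membrane with few proteins, of cytoplasmic channels along its edges, and of specialised surfaces that face the axon or the outside. Some myelin mRNAs, those of Mbp and Mobp among them, are carried into the cell's processes and translated there.

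The authors' cell type labels were used. They gave 1261 OPC, 681 COP and 4566 Olig cells among 20151 cells. How these labels were made is not given in the sources used here. If they rest on the same counts, the adjusted p-values below describe the size of a difference against the spread between mice and are not evidence that the types exist. Marker genes were highest in the type they stand for. Of the sets of 5 markers each, the OPC set held between 4520 and 4920 CPM in OPC (UMIs of a gene per 1000000 UMIs) and at most 665 CPM in COP, and the COP set held between 6240 and 7190 CPM in COP and at most 1490 CPM in OPC. The mature genes Cldn11, Trf, Ugt8a and Aspa together held between 6180 and 7830 CPM in Olig, between 1750 and 2110 CPM in COP and at most 238 CPM in OPC. The other types were astrocytes (Astro), tanycytes (Tany), ependymal cells (Epend), endothelial cells (Endo), microglia (Micro) and vascular leptomeningeal cells (VLMC). The first 5 of these, with 13575 cells, lie outside the lineage and served as a measure of transcripts found in cells that are not known to make myelin. VLMC had 68 cells, with 6 in each of mice 3 and 34, and were not used for this. A set of 5 neuron markers was highest in OPC in the mean, at 259 to 430 CPM, and no type was labelled as neurons. The ranges of other types overlapped this, among them microglia at 211 to 514 CPM.

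The 4 libraries held between 3005 and 7386 cells and between 3299971 and 8856079 unique molecular identifiers (UMIs, counted molecules). Cells had a median of 1020 UMIs in OPC, 1771 in COP and 1136 in Olig. Of 19954 distinct cell barcodes, 194 occurred in more than 1 library. Mouse 30 stood apart in the summed level of 4 Y-linked genes, at 93.9 CPM where mice 3, 4 and 34 had 227 to 229 CPM, and in its share of Olig cells, with 15.7% against 22.6% to 27.2%. Leaving mouse 30 out changed no call of any of the 8 genes in the 5 comparisons below. The whole counts of Olig cells gave a chi-square per degree of freedom between 2.38 and 4.86 for each pair of mice, so no pair of libraries looked like copies of 1 library. The labels give the mice as separate animals, and they were the 4 replicates.

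The sequences before the start sites of these genes are shown first, since the genes differ below in how much they rise at each step. RefSeq promoters on GRCm38.p6 were matched for 7 of the 8 genes, and the stretch from base 250 to base 51 before the start was read in the direction of the gene. Capitals mark the letters ACAAAG or ACAATG, a core bound by SOX factors such as Sox10, and the letters CTGGCAC or CTGGTAC, a core bound by Myrf, the factor that switches on myelin genes in maturing cells. Both strands were searched, so a match can appear as its reverse complement, and no match of one kind overlapped the other. Of 27025 promoters searched over the same 200 bases, 21.5% held the SOX core and 4.76% held the Myrf core. Cnp, Mag and Mog are shown as the genes that rose at the COP step and that hold the Myrf core, and Mobp and Opalin as genes below 10.0% of their Olig level in the mean of COP, one with many SOX cores and the other with 1. Cnp lies at chr11:100574689-100574888 on the plus strand, Mag at chr7:30914914-30915113 on the minus strand, Mog at chr17:37023449-37023648 on the minus strand, Mobp at chr9:120149492-120149691 on the plus strand and Opalin at chr19:41077164-41077363 on the minus strand.
Cnp: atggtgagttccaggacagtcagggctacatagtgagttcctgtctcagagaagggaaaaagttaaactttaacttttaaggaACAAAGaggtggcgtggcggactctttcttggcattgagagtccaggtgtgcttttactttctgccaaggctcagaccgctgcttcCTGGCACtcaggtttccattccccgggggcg
Mag: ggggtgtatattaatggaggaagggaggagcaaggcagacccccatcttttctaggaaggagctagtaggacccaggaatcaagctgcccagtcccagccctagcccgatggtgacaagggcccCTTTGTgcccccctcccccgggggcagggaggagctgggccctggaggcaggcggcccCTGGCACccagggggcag
Mog: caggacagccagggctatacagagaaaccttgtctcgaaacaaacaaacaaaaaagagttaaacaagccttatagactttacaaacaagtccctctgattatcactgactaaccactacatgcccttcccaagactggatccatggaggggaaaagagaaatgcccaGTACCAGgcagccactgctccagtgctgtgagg
Mobp: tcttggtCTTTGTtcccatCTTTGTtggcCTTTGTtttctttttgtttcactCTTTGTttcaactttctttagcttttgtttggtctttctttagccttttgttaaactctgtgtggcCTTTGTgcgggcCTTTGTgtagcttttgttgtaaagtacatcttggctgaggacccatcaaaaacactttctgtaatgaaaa
Opalin: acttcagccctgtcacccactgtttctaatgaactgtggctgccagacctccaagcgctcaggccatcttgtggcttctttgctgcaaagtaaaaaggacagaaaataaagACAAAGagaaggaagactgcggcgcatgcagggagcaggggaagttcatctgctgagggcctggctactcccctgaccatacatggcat
The SOX core occurred in 5 of the 7 promoters, with 6 matches in Mobp and 1 each in Cnp, Mag, Opalin and Ermn. The Myrf core occurred in 3 of the 7, once each in Cnp, Mag and Mog, where it began 81, 68 and 83 bases before the start. The first listed start of each gene was used. Mag had 3 listed starts, and the stretches before its others were not searched. Mobp, Opalin, Mal and Ermn held no Myrf core in this stretch. A match is a description of the letters and not of binding, and none of these data measure binding.

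The 8 genes did not rise together. In COP Mbp was above its Olig level (110% to 140% of it in the 4 mice) and Cnp just below it (87.0% to 98.7%), Mag and Mog were part of the way there, and Mobp, Opalin, Mal and Ermn were at or below 10.0% of it in every mouse. Relative to the Olig level of the same mouse, the CPM level in COP was 123% ± 14.4 for Mbp, 92.7% ± 5.05 for Cnp, 42.6% ± 8.28 for Mag and 16.1% ± 3.14 for Mog (SD, n = 4 mice). It was 8.76% ± 1.31 for Mobp, 3.95% ± 1.87 for Opalin, 1.55% ± 0.597 for Mal and 1.07% ± 0.417 for Ermn (SD, n = 4 mice). This order of the 8 genes was identical in 4 of 4 mice.

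**Figure D1:**
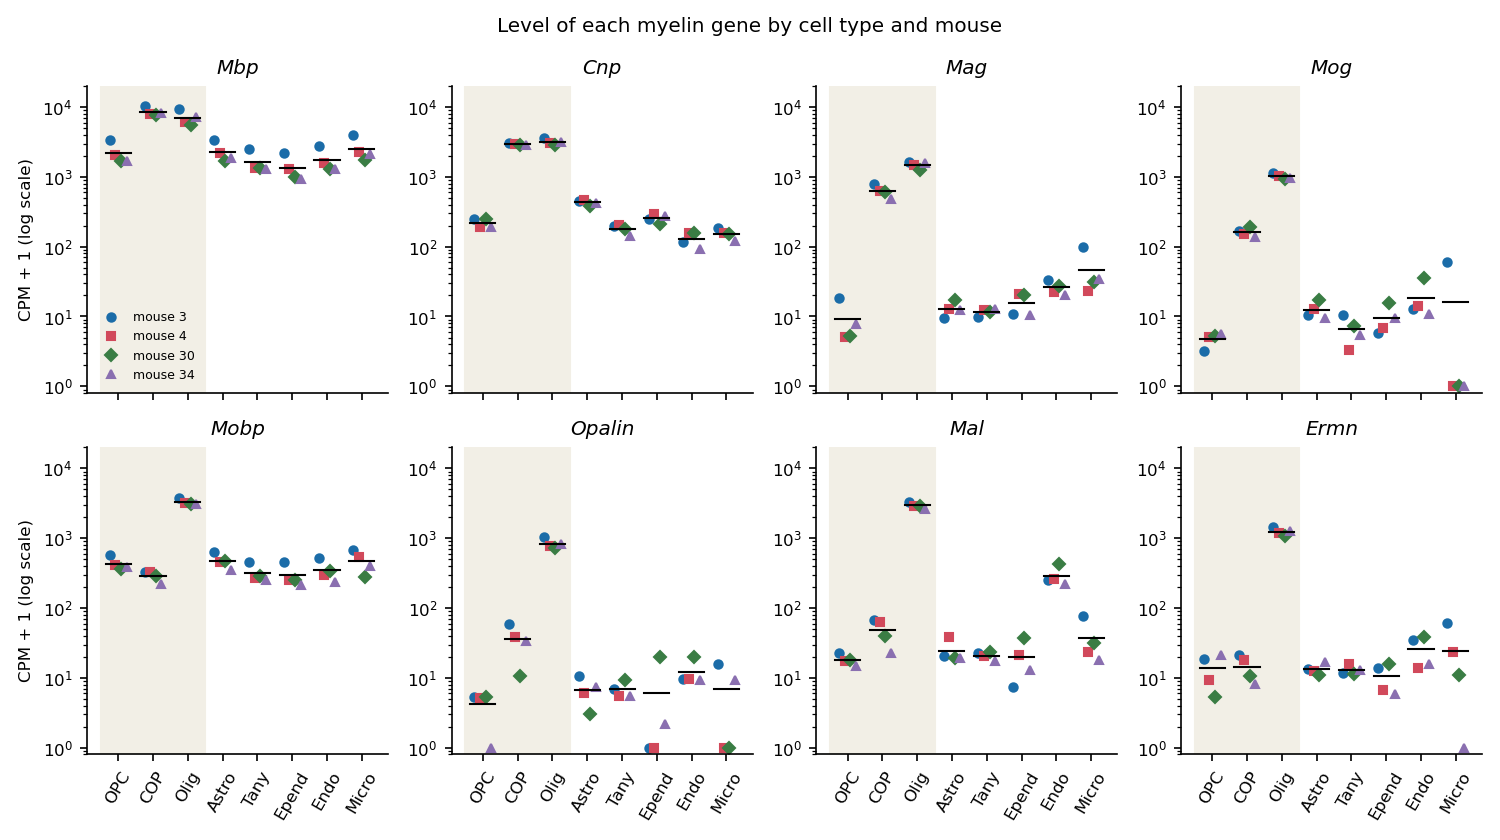
Level of each of the 8 genes (CPM + 1, log axis) in 8 cell types, with 1 symbol per mouse and a bar at the mean of the 4 mice. The lineage types are shaded. Mbp in COP lies above and Cnp slightly below Olig of the same mouse (110% to 140% and 87.0% to 98.7% of it), whereas Mobp and Ermn in COP lie close to the types outside the lineage and Mal lies below endothelial cells.

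Mbp encodes myelin basic protein, which holds the cytoplasmic faces of compact myelin together. Its level in OPC was 3363, 2070, 1711 and 1668 CPM in mice 3, 4, 30 and 34. COP held 10310, 7976, 7628 and 8089 CPM in the same order. Olig held 9360, 6122, 5454 and 7224 CPM. Every COP and Olig sum lay above every OPC sum, and within each mouse COP was above Olig, although the ranges of COP and Olig overlapped. Mbp rose 4.23-fold from OPC to COP (log2 fold change 2.08 ± 0.09 SE, adjusted p = 4.51e-38, edgeR quasi-likelihood test with Benjamini-Hochberg adjustment, as for all adjusted p-values here). Between COP and Olig the same test gave a log2 difference of 0.00 ± 0.08 (adjusted p = 0.984, 95% interval -0.15 to 0.16). The scaling decided this value: with library totals in place of TMM scaling it was -0.29 (adjusted p = 0.00123), lower in Olig, and the median over all genes then moved by -0.29 as well.

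Mobp encodes a small basic protein of compact myelin with a place similar to that of Mbp, and its course differed. Its level in OPC was 574, 410, 365 and 381 CPM in mice 3, 4, 30 and 34. COP had 329, 323, 282 and 217 CPM, lower than in OPC in 4 of 4 mice. In UMIs per cell the direction turned, with 0.788, 0.485, 0.366 and 0.517 in COP against 0.679, 0.413, 0.322 and 0.454 in OPC, higher in COP in 4 of 4 mice. The Olig sums were at 3774, 3210, 3043 and 3116 CPM, above every OPC and COP sum. The COP value in CPM was the lowest mean of the 8 types. From OPC to COP the log2 fold change was -0.51 ± 0.12 (adjusted p = 0.000121), which passed the p threshold and not the fold threshold of 2 used for a call. From COP to Olig Mobp rose 14.1-fold (log2 fold change 3.82 ± 0.10, adjusted p = 5.55e-69). Its span overlaps another annotated transcript on the same strand, Gm38642, and the share of counts from that transcript was not tested.

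Cnp encodes the cyclic nucleotide phosphodiesterase that keeps the cytoplasmic channels of myelin open. Its level in OPC was 245, 189, 246 and 190 CPM in mice 3, 4, 30 and 34. In COP Cnp was at 3100, 2907, 2838 and 2869 CPM. In Olig Cnp was at 3562, 3068, 2876 and 3169 CPM, a range that overlapped that of COP but was higher within 4 of 4 mice. Cnp rose 14.5-fold from OPC to COP (log2 fold change 3.86 ± 0.10, adjusted p = 1.47e-66). From COP to Olig it changed by 0.40 ± 0.07 on the log2 scale (adjusted p = 1.41e-06), a difference of 1.32-fold that was not called.

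Mag, Mog and Opalin encode proteins of the cell surface. Mag is the adhesion molecule of the innermost myelin layer, next to the axon. It was nearly absent from OPC, at 17.5, 4.10, 4.25 and 6.88 CPM in mice 3, 4, 30 and 34, from 13 UMIs in all. In COP it was 787, 625, 603 and 485 CPM. In Olig it was 1623, 1456, 1249 and 1575 CPM, and no 2 of the 3 stages overlapped. Mag rose 71.2-fold from OPC to COP (log2 fold change 6.15 ± 0.21, adjusted p = 5.22e-54), the largest first step among the 8 genes in this fit, and 2.90-fold from COP to Olig (1.53 ± 0.09, adjusted p = 1.56e-33). Over both steps, from OPC to Olig, it rose by 7.69 on the log2 scale, and by 8.35 without mouse 3.

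Mog is the glycoprotein of the outermost myelin surface. OPC held 5 UMIs of it in 1261 cells, a pooled level of 3.64 CPM (exact Poisson 95% interval 1.18 to 8.50, counting error only). In COP it was 165, 153, 191 and 138 CPM in mice 3, 4, 30 and 34. In Olig it was 1126, 1041, 922 and 970 CPM. Both steps were called, with 44.4-fold from OPC to COP (log2 fold change 5.47 ± 0.33, adjusted p = 7.20e-31) and 7.85-fold from COP to Olig (2.97 ± 0.11, adjusted p = 7.74e-53).

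Opalin is a transmembrane glycoprotein made by oligodendrocytes. OPC held 4 UMIs of it (pooled 2.92 CPM, 95% interval 0.794 to 7.46), with 0 UMIs in mouse 34, where a count of 0 allows up to 6.88 CPM (3 counts of the total). In COP it was 58.2, 37.4, 9.57 and 32.6 CPM in mice 3, 4, 30 and 34, from 51 UMIs, with mouse 30 lowest at 2 UMIs. In Olig it was 1034, 766, 718 and 819 CPM. The first step was 13.5-fold (log2 fold change 3.75 ± 0.51, adjusted p = 2.94e-10) and the second 27.1-fold (4.76 ± 0.15, adjusted p = 1.01e-59). Without mouse 30 the first step was 4.10 on the log2 scale, with sums thinned to equal totals it was 2.93, and in cells with at least 1000 UMIs it was 4.96. The full step from OPC to Olig moved likewise, from 8.51 to 7.89 with thinned sums and to 9.72 in the deeper cells.

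Mal and Ermn encode proteins of membrane trafficking and of the cytoskeleton. Mal, a membrane proteolipid that sorts proteins to myelin, was at 21.9, 16.4, 17.0 and 13.8 CPM in OPC of mice 3, 4, 30 and 34. In COP it was 66.2, 61.1, 38.3 and 21.7 CPM, from 65 UMIs. In Olig it was 3341, 2917, 2936 and 2630 CPM. The first step was small but called, 3.01-fold (log2 fold change 1.59 ± 0.31, adjusted p = 9.29e-06), and the second was 73.4-fold (6.20 ± 0.13, adjusted p = 8.29e-79). Ermn, or ermin, an actin-binding protein of late myelination, was at 17.5, 8.20, 4.25 and 20.6 CPM in OPC and at 20.1, 17.0, 9.57 and 7.24 CPM in COP, from 20 and 19 UMIs. These ranges overlapped, and the first step was 0.13 ± 0.44 on the log2 scale (adjusted p = 0.861, 95% interval -0.74 to 0.99). In Olig Ermn was at 1433, 1188, 1074 and 1275 CPM, and the second step was 105-fold (log2 fold change 6.71 ± 0.16, adjusted p = 1.42e-70), the largest among the 8 genes. Without the cells of highest doublet scores this second step was 7.48. Ermn overlaps Galnt5, Cnp overlaps Dnajc7 and Mog overlaps Gm22388, each on the opposite strand. How the counting used strand is not given in the sources used here.

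**Figure D2:**
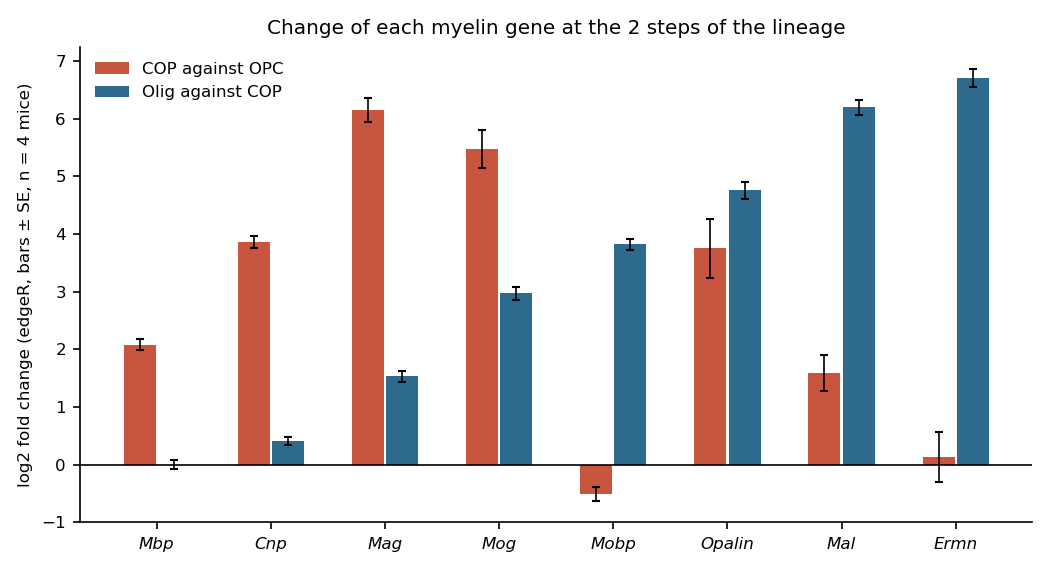
Log2 fold change of each gene (bars, ± SE, edgeR, n = 4 mice) from OPC to COP and from COP to Olig. Mbp and Cnp change mainly at the first step, Mobp, Mal and Ermn at the second, and Mag, Mog and Opalin at both.

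Counted over the 8 genes, 6 were called higher in COP than in OPC, where 10.2% of the 7108 genes tested were called higher and 23.9% were called in either direction (adjusted p below 0.05 and more than 2-fold). The members' median log2 fold change was 2.92, and that of all genes tested was 0.01. From COP to Olig 6 of 8 were called higher, against 13.5% of all genes higher and 26.7% in either direction, with a median of 3.39 for the members and 0.01 for all genes. Between OPC and Olig 8 of 8 were called higher, against 12.2% of genes higher, 14.9% lower and 27.1% in either direction, with fold changes from 4.24 for Mbp to 365 for Opalin. These 2 folds rest on low OPC levels. That of Mbp was 31.1% of Olig, beside 26.6% outside the lineage, and that of Opalin came from 4 UMIs. All 8 genes passed the filter on low counts. The split of all calls moved with the scaling: COP to Olig gave 963 higher and 934 lower with TMM and 679 and 1378 with library totals, and OPC to Olig gave 864 and 1062 against 616 and 1655, while none of the called members lost its call.

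A part of these levels was present in cells outside the lineage, and it was far from equal among the genes. Averaged over the 5 types outside the lineage, the level was 26.6% ± 4.54 of the Olig level for Mbp, 11.4% ± 2.19 for Mobp and 7.28% ± 0.782 for Cnp (SD, n = 4 mice). It was 2.61% ± 0.672 for Mal, 1.47% ± 0.393 for Mag, 1.31% ± 0.473 for Ermn, 1.13% ± 0.574 for Mog and 0.821% ± 0.371 for Opalin. Cldn11, the claudin of myelin's tight junctions, had 3439 CPM in Olig and stood at 1.07% outside the lineage. Other genes abundant in Olig stood higher there, Trf (2398 CPM in Olig) at 5.1% and Scd2 (3607 CPM in Olig) at 36.3%.

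**Figure D3:**
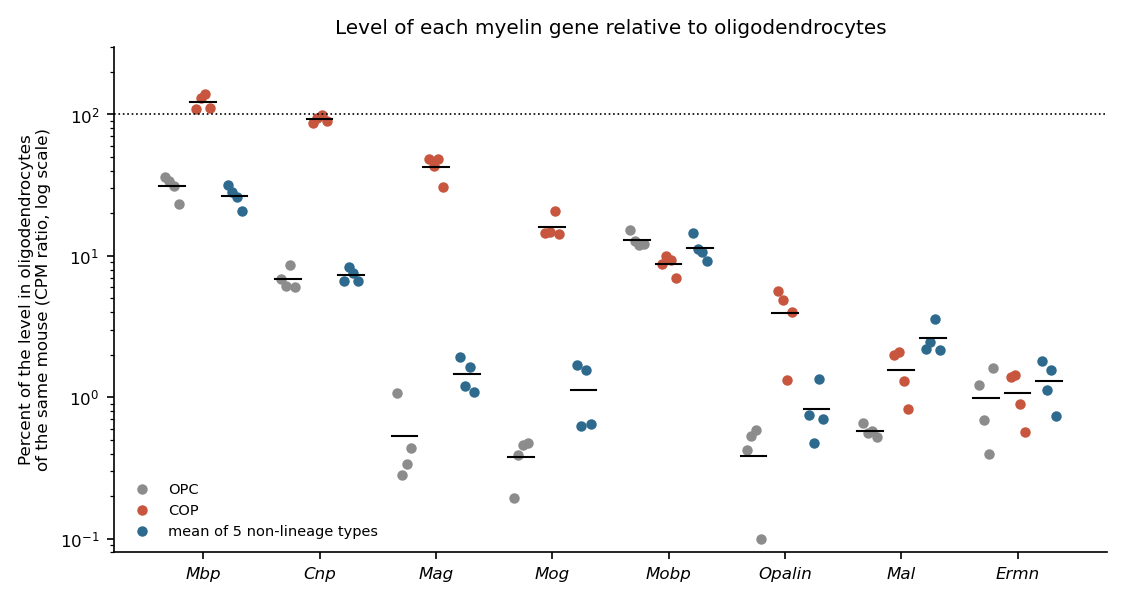
Level in OPC, in COP and in the mean of 5 types outside the lineage, as a percent of the Olig level of the same mouse (CPM ratio, log axis, 1 point per mouse, bars at means, a value of 0 drawn at 0.1). Mbp and Mobp lie at 26.6% and 11.4% outside the lineage, and in COP Mobp and Ermn lie at 8.76% and 1.07%, beside 11.4% and 1.31% outside the lineage.

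Mbp transcripts were found in 11074 of the 13575 cells outside the lineage (81.6%), with 2.79 UMIs per such cell. Mobp was found in 33.2% of them and Cnp in 25%, and the other 5 genes in 0.715% to 4.30%. In UMIs per cell, Mbp varied by 1.21-fold to 1.72-fold within a mouse over OPC and the 5 types outside the lineage. It lay between 3.02 and 4.09 in mouse 3, 1.71 and 2.94 in mouse 4, 1.25 and 1.80 in mouse 30, and 1.69 and 2.05 in mouse 34. COP and Olig stood clear of this, with 24.7 and 13.0 Mbp UMIs per cell in mouse 3 and 9.9 and 5.6 in mouse 30. Mobp varied more over the same 6 types, by 1.25-fold to 2.10-fold within a mouse. It lay between 0.555 and 0.695 UMIs per cell in mouse 3, 0.336 and 0.706 in mouse 4, 0.284 and 0.462 in mouse 30, and 0.322 and 0.454 in mouse 34. COP cells held 0.788, 0.485, 0.366 and 0.517 Mobp UMIs in the same order, above these ranges in mice 3 and 34 and inside them in mice 4 and 30. They were above the mean of the 5 types outside the lineage, at 0.628, 0.457, 0.352 and 0.351, in 4 of 4 mice. The 68 VLMC held 105 Mbp, 26 Mobp, 16 Cnp and 12 Mal UMIs, and 0 or 1 UMI of each of the other 4 genes. Mouse 3 had the highest Mbp count per cell in OPC, COP, Olig and in the mean of the types outside the lineage.

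**Figure D4:**
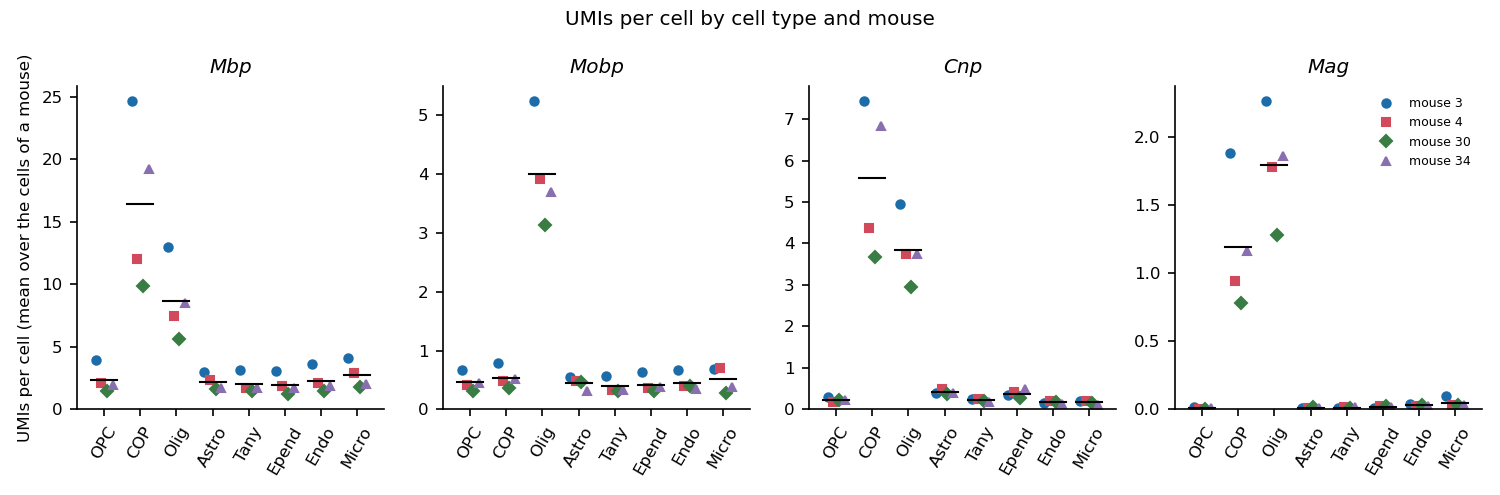
UMIs per cell of Mbp, Mobp, Cnp and Mag in 8 cell types (linear axes that differ between panels, 1 symbol per mouse, bars at means). Over OPC and the types outside the lineage Mbp varies by at most 1.72-fold and Mobp by at most 2.10-fold within a mouse. In the mean, Mbp and Cnp stand above Olig in COP, and Mobp in COP stands near the types outside the lineage.

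Against this floor, none of the 8 genes was called higher in OPC, and for Mbp and Mobp the direction of the difference depended on the scale. In CPM, OPC lay above the mean of the 5 types in 4 of 4 mice for both genes. Mbp in OPC was at 35.9%, 33.8%, 31.4% and 23.1% of its Olig level in mice 3, 4, 30 and 34, beside 31.6%, 28.3%, 25.9% and 20.8% outside the lineage. Mobp was at 15.2%, 12.8%, 12.0% and 12.2%, beside 14.4%, 11.2%, 10.6% and 9.27%. In the fit with TMM scaling over all 8 types, 0 of 8 genes were called higher in OPC than in the mean of the 5 types outside the lineage, against 12.2% of 10166 genes called higher, and 0 were higher at an unadjusted p below 0.05. DESeq2 called 0 higher too. Mag, Mog, Opalin and Ermn are high in Olig but held 13, 5, 4 and 20 UMIs in all OPC. Such counts left these genes little room for a call of higher, so 0 of 8 and 12.2% are not like shares. The differences were -0.02 ± 0.08 for Mbp (adjusted p = 0.90), -0.03 ± 0.09 for Mobp (adjusted p = 0.840) and -0.20 ± 0.12 for Cnp (adjusted p = 0.177). Those for Opalin and Ermn were -1.42 ± 0.77 and -0.37 ± 0.36, with adjusted p = 0.144 and 0.447. Mag, Mog and Mal were called lower in OPC, but none of the 3 calls held under every setting. They were 1.21 ± 0.39, 1.81 ± 0.58 and 1.39 ± 0.35 below the other types on the log2 scale (adjusted p = 0.00816, 0.00831 and 0.00111), where 10.9% of genes were called lower and 23.1% in either direction. For Mal the mean outside the lineage was carried by endothelial cells, whose 287 CPM stood beside 18.6 to 36.1 CPM in astrocytes, tanycytes, ependymal cells and microglia. Without endothelial cells, a choice made after seeing the data, the call for Mal ended (-0.70 ± 0.34, adjusted p = 0.0895). The call for Mag ended with library totals (-0.94), with thinned sums (-0.56) and in cells with at least 1000 UMIs (-0.48), and without mouse 3 the difference was -1.84. The call for Mog ended without mouse 3 (-0.20, adjusted p = 0.936), whose microglia held 8 Mog UMIs while those of the other 3 mice held 0. With library totals Mbp and Mobp were higher in OPC by 0.25 and 0.24 (adjusted p = 0.00785 and 0.0242), within a shift of the median gene by 0.28, and the split over all genes went from 1241 higher and 1112 lower to 1715 and 778.

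COP stood above the floor for 5 of the 8 genes, and was lower by a call for 0 of them, where 13.6% of genes were called higher, 19.6% lower and 33.3% in either direction. Log2 fold changes against the types outside the lineage were 4.95 ± 0.12 for Mag, 3.67 ± 0.20 for Mog, 3.66 ± 0.07 for Cnp, 2.35 ± 0.37 for Opalin and 2.09 ± 0.07 for Mbp. The highest adjusted p of these 5 was 2.27e-07, for Opalin, which was higher in 3 of 4 mice, the exception being mouse 30. Without mouse 30 Opalin was at 3.09, and without the cells of highest doublet scores at 2.94. Mog was at 4.99 without mouse 3 and at 4.44 without those cells. Mobp was lower in COP by 0.54 ± 0.11 (adjusted p = 7.47e-06, not called). Mal and Ermn differed by 0.22 ± 0.26 and -0.24 ± 0.37 (adjusted p = 0.528 and 0.634). Without endothelial cells Mal was higher in COP by 0.91 ± 0.26 (adjusted p = 0.00165), past the p threshold and not the fold threshold. The split over all genes was 1384 higher and 1997 lower, and 1687 and 1728 with library totals.

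Because COP cells held more UMIs than the others, CPM and counts per cell gave different pictures of the same gene. In UMIs per cell, and after subtraction of the mean of the types outside the lineage in the same mouse, COP stood at 218% ± 31.1 of Olig for Mbp, 147% ± 31.6 for Cnp, 64.3% ± 13.3 for Mag and 23.7% ± 4.41 for Mog (SD, n = 4 mice). Opalin stood at 5.55% ± 3.90, Mobp at 2.44% ± 2.15, Ermn at 0.310% ± 0.655 and Mal at -0.497% ± 1.67. On this scale Mbp, Cnp, Mag, Mog, Opalin and Mobp were above 0 in 4 of 4 mice, Mobp moved behind Opalin in the mean, and the values of Mal and Ermn lay on both sides of 0 among the mice. For Mal endothelial cells set this floor, with 0.321 to 0.493 UMIs per cell against at most 0.0781 in the other 4 types. With the floor taken from those 4 types Mal in COP stood at 1.55% ± 0.90 of Olig and above the floor in 4 of 4 mice, where it had been above in 1, while Ermn stood at 0.542% ± 0.461, above it in 3 of 4 with either floor. This subtraction was chosen after the data had been seen and takes the floor to be equal in all cells of a mouse.

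Cnp and Mal had a further pattern outside the lineage. Cnp was at 444, 459, 384 and 426 CPM in astrocytes of mice 3, 4, 30 and 34, above every sum of the other 4 types outside the lineage, the highest of which was 295 CPM in ependymal cells. Mal was at 247, 260, 421 and 221 CPM in endothelial cells, whereas the other 4 types outside the lineage held at most 74.9 CPM. Endothelial Mal also exceeded every COP sum of Mal. In 26.1% ± 3.65 of endothelial cells a Mal UMI was found (SD, n = 4 mice), against 2.22% ± 1.02 of astrocytes. Of the other genes that rose late, Mobp was at 346 CPM in endothelial cells, Ermn at 25 CPM and Opalin at 11.1 CPM in the mean, and Mag and Mog were at 25.1 and 17.2 CPM. For Mog, Opalin and Ermn these were the highest means outside the lineage, each with a range over the mice that overlapped that of the next type.

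Among the 13575 cells outside the lineage, 23 held UMIs of at least 3 of Mag, Mog, Opalin, Mal and Ermn. Their median doublet score was 0.140 and their median depth 2287 UMIs, against 0.0647 and 966 UMIs in the rest. They held 10.9% of the UMIs of these 5 genes outside the lineage. The part of doublets in the remaining UMIs was not tested.

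The composition of the 8 genes' transcripts differed between stages. Mbp made up 76.4% of their UMIs in OPC, 67.9% in COP and 34.9% in Olig, and between 69.1% and 77.4% in the types outside the lineage. Cnp rose from 7.20% in OPC to 22.7% in COP and stood at 14.8% in Olig. Mal made up 0.390% in COP and 13.5% in Olig. Mobp made up 14.8% in OPC, 2.27% in COP and 15.3% in Olig, and between 13.4% and 15% outside the lineage. Of all UMIs of a type, the 8 genes together took 0.290% ± 0.0917 in OPC, 1.26% ± 0.150 in COP and 2.10% ± 0.300 in Olig (SD, n = 4 mice).

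In single cells, thinned to 500 UMIs each so that depth was equal, Mbp was found in 95.2% ± 2.0 of COP cells and Cnp in 74.5% ± 2.79, close to the 95.5% ± 3.10 and 76.9% ± 2.34 of Olig cells (SD, n = 4 mice). Mag was found in 25.6% of COP and 49.3% of Olig cells, and Mog in 6.39% and 38.4%. For Opalin, Mal and Ermn the shares in COP were 2.44%, 1.15% and 0.786%, while those in Olig were 31.2%, 71.6% and 44.7%. Mobp was found in 12.8% of COP, 76.1% of Olig and 17.2% of cells outside the lineage. In the mean its share in COP was below that of each of the 5 types outside the lineage (14.3% to 21.2%). Over the mice the COP range of Mobp, 9.94% to 14.8%, overlapped those of all these types but astrocytes (16.4% to 26.9%). For Ermn the share outside the lineage was 0.743%, close to its 0.786% in COP, and without thinning the shares were 1.45% and 2.34%. For Mal the share outside the lineage was 2.06%, but it was 11.1% in endothelial cells and 1.12%, 1.0%, 0.891% and 2.58% in astrocytes, tanycytes, ependymal cells and microglia. The COP share of Mal, at 1.15% ± 1.10, lay within the range of these last 4 types. Mbp in OPC, at 63.0% ± 11.4, stood beside 58.1% ± 11.2 outside the lineage. Without thinning, COP shares were 99.4% for Mbp, 95.6% for Cnp, 55.6% for Mag and 36.4% for Mobp. For Mobp the order then turned, since the 5 types outside the lineage held it in 30.4% to 35.1% of cells, with ranges over the mice that overlapped that of COP. Thinning left out 1 OPC cell.

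The number of the 8 genes found per cell gave the same order of stages. At 500 UMIs, 26.8% ± 8.02 of OPC cells held none of them and 71.3% ± 6.45 held 1 or 2. Outside the lineage these shares were similar, at 31.0% ± 9.18 and 66.6% ± 8.24. In COP 66.1% ± 2.68 held 1 or 2 and 32.7% ± 2.06 held 3 to 5. In Olig 65.0% ± 4.36 held 3 to 5 and 31.3% ± 5.97 held 6 to 8. The shares moved with depth: at 1000 UMIs 41.0% of COP cells held 1 or 2 and 57.9% held 3 to 5, and 77.9% of Olig cells held 6 to 8. Without thinning 70.8% of COP cells held 3 to 5 and 76.6% of Olig cells held 6 to 8. Thinning to 1000 UMIs left out 141 COP and 1616 Olig cells. The 448 COP cells with 1 or 2 genes and the 224 with 3 to 5 had 1.61 and 1.2 UMIs per cell of Gpr17, the receptor that marks the committed stage, while Bcas1 was at 1.07 in both. These bins were made from the cells they describe and were not tested.

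**Figure D5:**
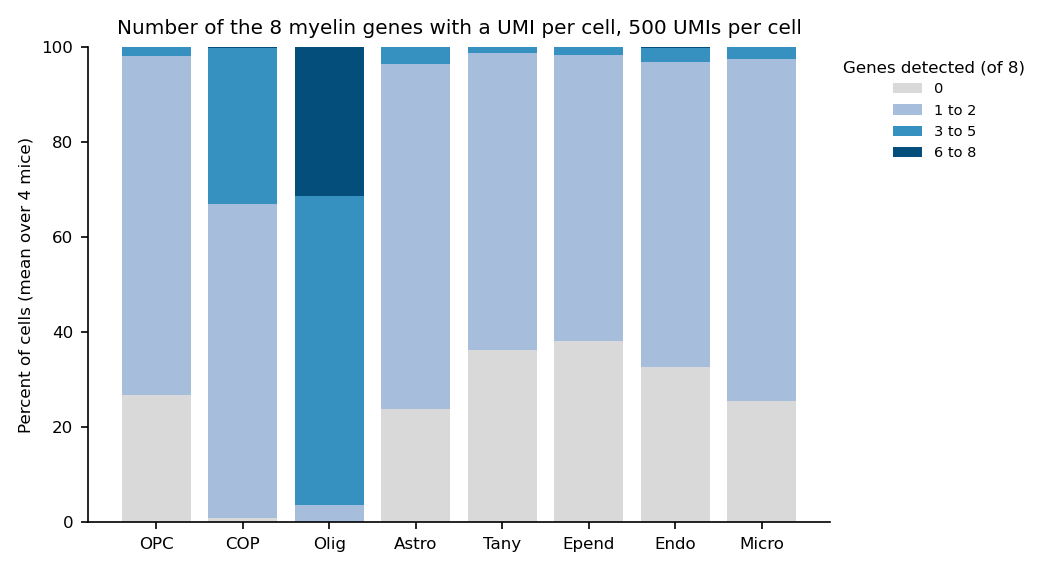
Percent of cells (mean of 4 mice) with UMIs of 0, 1 to 2, 3 to 5 or 6 to 8 of the 8 genes, each cell thinned to 500 UMIs. At this depth COP hold mostly 1 to 2 genes and Olig mostly 3 to 5, while at 1000 UMIs they hold mostly 3 to 5 and 6 to 8, and OPC resemble the types outside the lineage.

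Within Olig the authors' clustering held 2 clusters, of 4007 and 559 cells, and the smaller had 4.52-fold more Ptgds, a prostaglandin synthase of mature oligodendrocytes. Opalin was higher in the smaller cluster in 4 of 4 mice, with a ratio of 1.45 ± 0.207 (SD, n = 4 mice). Ermn and Mbp were lower in 4 of 4 mice, at 0.884 ± 0.0557 and 0.918 ± 0.0471. The ratios of the other 5 genes lay between 0.909 and 1.03 and differed in direction between mice. The clusters come from the same cells, so no test was made.

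Other genes of the pathway are given by list, with the same thresholds. Of all genes tested, 10.2% were called higher and 13.8% lower from OPC to COP, and 13.5% higher and 13.1% lower from COP to Olig. Of 12 further genes of myelin membrane, junctions and adhesion, 9 rose and 0 fell from OPC to COP, among them Cldn11 (log2 fold change 5.97 ± 0.16) and Nfasc (5.18 ± 0.12), the cell adhesion protein neurofascin. From COP to Olig 5 rose, with Cntn2, contactin-2, at 5.96 ± 0.21 and Gjb1, connexin 32, at 5.65 ± 0.24, and 4 fell, with Mpzl1 at -4.10 ± 0.10. The medians of the list were 2.05 and 0.69. At the first step 1 gene fell without mouse 3, and 1 without the cells of highest doublet scores.

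Of 10 genes of myelin lipid synthesis, 6 rose from OPC to COP and 7 from COP to Olig, and 0 fell at either step. With library totals 5 rose and 1 fell from COP to Olig. Elovl7, a fatty acid elongase, rose by 4.77 ± 0.32, Fa2h, the fatty acid hydroxylase, by 2.70 ± 0.20 and Ugt8a, which makes galactosylceramide, by 1.99 ± 0.13 at the first step. Aspa, aspartoacylase, rose by 6.10 ± 0.24, Plin3 by 4.60 ± 0.26 and Elovl1 by 2.35 ± 0.21 at the second. Of 12 genes of the cytoskeleton and support in mature cells, 6 rose at the first step, Sirt2, a deacetylase, by 3.77 ± 0.09 and Trf, transferrin, by 2.49 ± 0.28. Tmem125 was called too, but OPC held 0 UMIs of it and no fold is given. At the second step 11 of the 12 rose and 1 fell, and Car2, carbonic anhydrase 2, rose by 5.83 ± 0.13, Trf by 5.08 ± 0.12 and Tppp3, a tubulin-binding protein, by 5.07 ± 0.17.

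Of the regulators, 11 of 12 were tested. Myrf rose by 4.36 ± 0.22 and Tcf7l2, a transcription factor of the Wnt pathway, by 3.49 ± 0.14 from OPC to COP, and Hes5, a repressor in the Notch pathway, fell by 3.38 (± 0.53). In all 4 rose and 3 fell. From COP to Olig 2 rose and 3 fell: Tcf7l2 fell by 3.8 (± 0.11), Zfp488 fell by 2.72 (± 0.21) and Zfp536 rose by 2.57 ± 0.19. The 10 genes of the commitment stage all rose from OPC to COP, with Enpp6 at 8.34 ± 0.26, Bmp4 at 7.84 ± 0.34 and Fyn at 3.59 ± 0.10, and all fell from COP to Olig, with Bmp4 at -7.71 ± 0.24, Neu4 at -7.23 ± 0.18 and Gpr17 at -6.92 ± 0.12. Of 8 precursor genes 6 fell at each step, with Pdgfra, the receptor for platelet-derived growth factor, at -6.51 ± 0.19, Cspg5 at -5.38 ± 0.15 and Cspg4 at -4.07 ± 0.21 at the first, and Vcan at -5.71 ± 0.25, C1ql1 at -3.84 ± 0.38 and Lhfpl3 at -3.37 ± 0.22 at the second. Without mouse 3, 1 of the precursor genes rose at the second step, where 0 did with 4 mice. Several genes of the last 2 lists are commonly used to name these stages, so their course is not independent of the labels.

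Over 33 sums of a type in a mouse, the 5 genes whose log2(CPM + 1) was most like the mean of the 8 genes included Cers2 (Pearson's r = 0.921), Desi1 (0.916), Sept4 (0.912) and Tmem125 (0.904), among 6921 genes that reached 50 CPM in the mean of any type. The sums share mice and the few types that hold any myelin transcript, so the correlation describes the pattern only. With log2(CPM + 10) 2 of these 5 stayed among the first 5, and with Spearman's rank correlation 0 did. Of the 8 genes themselves Opalin (0.946), Mog (0.932) and Mag (0.917) were closest to their mean and Mbp (0.796) was farthest. Each gene is part of the mean it was compared with, which raises these values. With Spearman's rank correlation Opalin (0.904) and Mog (0.855) stayed closest, but Mal (0.728) stood above Mag (0.721). Mobp (0.416) was then farthest, with Mbp at 0.673.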

How the data were processed

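Per the submitters' processing notes the series names Cell Ranger 1.2, Seurat and the builds GRCm38, mm10 and GRCh38. Their roles, the counting annotation and the making of the cell type labels are not stated in the sources used. The authors deposited whole UMI counts per gene and cell. For each cell the authors also deposited its total count, its number of genes, a mitochondrial percent, a doublet score as a fraction between 0 and 1, and labels of mouse, type and cluster. The counts summed to the listed totals in all 20151 cells, and the recomputed mitochondrial percent from 13 genes equalled the deposited one. Cells had been filtered by the authors and held at least 487 UMIs. No doublets were removed here. Cells of 12 other libraries in the same table match no labelled sample and were not used. Normalized values deposited beside the counts were not used, because they were made over all libraries.

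Counts were summed per mouse and type (at least 20 cells) and compared with the quasi-likelihood F test of edgeR 4.0.16 in R 4.3.3, two-sided, with mouse as a block, TMM scaling, filterByExpr and Benjamini-Hochberg adjustment over all genes of a fit. One fit held the 12 sums of the lineage types and another the 32 sums of 8 types. A call needed an adjusted p under 0.05 and a change of more than 2-fold (1 on the log2 scale) either way. The block pairs types of the same animal. CPM is a gene's UMIs per 1000000 UMIs of its sum, without scaling factors, so that CPM and fitted fold changes can differ. The code was tested on simulated data. Per-cell shares were taken after thinning each cell to 500 UMIs (random seed 1). Python 3.11.15, numpy 2.4.6 and pandas 2.3.3 were used.

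The genes and gene lists were chosen with earlier results of these data known. Named genes are the 8 members, up to 3 called genes of largest absolute log2 fold change per list and step, and the 5 genes of most similar pattern. An item that these rules name is not reported here. Alternatives tried were DESeq2 1.42.0, its size factors in edgeR, library totals, no filter, no block, thinned sums, totals without myelin genes, leaving out each mouse, the 10% of cells with the highest doublet scores, cells below 1000 UMIs, or shared barcodes, counts per cell, and the types outside the lineage without endothelial cells. The last 3 were added after the data had been seen. With 4 mice and sums of 44756 to 2319177 UMIs, counting intervals cover counting error only. Genes were located with GENCODE M21.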

Additional observations from a re-analysis of the deposited data

Results flagged for a closer look

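Each set of 4 mice was searched for a mouse whose gap to its nearest neighbour filled most of the range (Dixon's 95% test). In 80 sets 10 such values were found, and chance flags about 1 in 20 sets. Values are CPM unless stated, and no explanation was tested.

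In mouse 3, Mbp in tanycytes was at 2499 against 1282 to 1348 in the other mice, and Mobp in tanycytes at 453 against 251 to 283. In microglia of mouse 3, Mag was at 97.4 against 22.3 to 33.7 (13 UMIs), and Mog at 60 (8 UMIs) against 0 in the others, where a count of 0 allows 25.3 to 67.0 CPM. In mouse 30, Mog in endothelial cells was at 34.2 against 9.81 to 13.0 (9 UMIs). Opalin there was at 19.0 against 8.18 to 8.67 (5 UMIs), and in ependymal cells also at 19.0 against 0 to 1.2 (9 UMIs). The COP level of Mog in mouse 30 was 20.8% of its Olig level against 14.2% to 14.7%. In mouse 4, Mal in astrocytes was at 37.3 against 18.0 to 19.5 (29 UMIs). Opalin in OPC of mouse 34 was at 0 against 4.10 to 4.38, a difference of 1 or 2 UMIs.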

How the results depend on the processing

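Under 14 alternatives, and 15 for the comparisons with types outside the lineage, 7 of the 8 genes from OPC to COP, 7 from COP to Olig, 8 from OPC to Olig and 7 in COP against the types outside the lineage kept their direction and their side of the threshold. The exceptions follow, and their cause was not tested. Ermn from OPC to COP was -0.11 without mouse 3, -0.09 without mouse 4 (-0.11 to 0.61 over the mice left out) and -0.67 without the highest doublet scores. Mbp from COP to Olig was -0.29 with library totals, -0.03 with thinned sums, -0.01 without mouse 3 and -0.03 without mouse 34. Ermn in COP against the types outside the lineage was 1.05 with thinned sums. The comparison of OPC with those types was the least stable. Mbp there was 0.25 with library totals, 0.11 thinned, 0.01 and 0.02 without mouse 3 or 34 (-0.05 to 0.02 over the mice left out), and 0.20 in cells with at least 1000 UMIs, a setting that leaves out microglia. Mobp was 0.24, 0.08, 0.07 without mouse 3, and 0.18, and Cnp was 0.08 with library totals. Thinned, Opalin was 0.10 and Ermn 0.40, and Mag, Mog and Mal lost their calls at -0.56, -0.81 and -2.21. Without endothelial cells Mal lost it too (-0.70). Mag lost it also with library totals (-0.94) and at 1000 UMIs (-0.48), Mog without mouse 3 (-0.20) and without high doublet scores (-1.02), and Opalin gained one at 1000 UMIs (-2.44).

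Genes called fell with thinned sums from 1701 to 1105 (OPC to COP), from 2353 to 347 (OPC against the types outside the lineage) and from 3381 to 548 (COP against them), and rose without the filter from 1926 to 3118 (OPC to Olig). Leaving out a mouse gave 1334 to 1789 (OPC to COP), 1557 to 1987 (COP to Olig), 1563 to 2047 (OPC to Olig), 2054 to 2378 and 2977 to 3355 genes. Without the replicate block 1670, 1881, 1931, 2277 and 3311 genes were called in the same order, and no call of the 8 genes changed. The median over the 8 genes of the COP level was 12.4% of Olig, 11.5% to 13.0% without a mouse, 18.9% in UMIs per cell and 14.7% after subtraction (14.8% without endothelial cells), where Mal was at -0.497%. The like median outside the lineage was 2.04% (1.84% to 2.17% without a mouse). The summed Olig level was 21018 CPM (19606 to 21933). The median share of COP cells with a UMI was 9.59% (9.04% to 9.88%), 19.3% thinned to 1000 UMIs and 29.3% unthinned, and the share with 3 to 5 genes was 32.7% (31.7% to 33.3%), 57.9% and 70.8%. Both shares moved with depth, and thinning to 1000 UMIs also left out 141 COP cells.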
